A study of Mus musculus with 49 samples.

Results

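Budding organoids are small closed epithelia grown in Matrigel that push out crypt-like buds. The comparison set 3 libraries of budding organoids grown from Cdx2-transduced dedifferentiated hepatocytes (dediHep-BOs) against 4 libraries of budding organoids grown from adult small-intestinal crypts (ISC-BOs), chosen by their labels. These were 7 of the 49 libraries and 2 of the 16 conditions in the series. The question was which genes still separate the 2 kinds of organoid once both have taken the same shape.

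Both groups were wild type (WT), labelled C57BL/6J, and came from mice of 10 weeks. The dediHep-BOs started as adult hepatocytes that had dedifferentiated in monolayer with EGF, received Cdx2 and GFP by retrovirus and were embedded in Matrigel, first with EGF, Noggin, R-spondin1, Wnt3a and CHIR99021 and, after passaging, with EGF, Noggin and R-spondin1 alone. The ISC-BOs were kept throughout in EGF, Noggin and R-spondin1, so the culture history differs together with the cell of origin and the Cdx2 virus, and the 3 cannot be told apart. The study says in general terms that its experiments were repeated independently, but no source used here ties these libraries to separate mice or cultures, so p-values measure the spread between these libraries, which may be partly technical. In bulk RNA, fewer cells of a type and less RNA per cell cannot be told apart.

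The small-intestinal epithelium is renewed by Lgr5+ stem cells at the crypt base. Their daughters become absorptive enterocytes, mucus-secreting goblet cells, hormone-secreting enteroendocrine cells, tuft cells, or Paneth cells, which stay beside the stem cells and secrete lysozyme and the small antimicrobial peptides called defensins. CDX2 is the homeobox factor that sets intestinal identity in the embryonic endoderm, while other homeobox and GATA factors mark position along the gut tube and the organs that bud from it, including liver and pancreas.

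The libraries held 1757504 to 2337097 unique molecular identifier (UMI) counts, the number of distinct tagged RNA molecules seen, with 15543 to 16619 genes detected and 1.61 to 1.93% of counts from the mitochondrial genome. Spearman correlations of log2 CPM (counts scaled to a common library total) were 0.938 to 0.962 among the dediHep-BOs, 0.852 to 0.953 among the ISC-BOs and 0.778 to 0.914 between the groups. The low ends of the last 2 ranges came from ISC-BO 2, at 0.852 with ISC-BO 4 and 0.778 with dediHep-BO 1. Among pairs without ISC-BO 2, the lowest were 0.936 within the ISC-BOs and 0.880 between the groups. Although the methods name male mice, the Y-linked gene Ddx3y had 0, 0 and 438 counts in dediHep-BO 1, 2 and 3 and 0, 0, 408 and 323 in ISC-BO 1 to 4, so 4 of the 7 libraries did not match a male source. Ddx3y was thus at 0 in 2 libraries of each group. Xist, the RNA of the inactive X chromosome, had 21, 1 and 0 counts in the dediHep-BOs and 579, 511, 1 and 0 in the ISC-BOs, so the ISC-BOs without Ddx3y carried it and the dediHep-BOs without Ddx3y had few counts or 1. A second split concerned stroma: the 12 fibroblast genes summed to 327, 334 and 4.68 CPM in the dediHep-BOs and 0.581 to 1.83 CPM in the ISC-BOs, and Col3a1 had 282, 210 and 4 counts against 0 in each ISC-BO. None of these 12 genes passed the filter on low counts, so none entered the test. The immune marker Ptprc had 0 to 2 counts in every library and the red cell marker Hbb-bs 0 or 1. The part of the Y-linked and stromal splits in the results was not tested beyond the fits that leave out libraries.

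The labels call the dediHep-BOs liver and hepatocyte, but their RNA carried several defining genes of intestinal epithelium, with counts that overlapped those of the ISC-BOs. Albumin (Alb) had 0 counts in all 3 dediHep-BOs, which allows up to 1.44 to 1.62 CPM per library for counting error alone. Vil1, which encodes the brush border protein villin, had 685, 795 and 780 counts against 680, 959, 785 and 738 in the ISC-BOs. Lgr5, the stem cell receptor for R-spondins, had 474, 579 and 363 against 270, 273, 370 and 212, and the Paneth cell lysozyme Lyz1 had 3740, 3738 and 3056 against 3180, 2756, 3066 and 3116. The groups overlapped for all of these genes, and none was called. The Lyz1 counts approach the 4096 possible UMI sequences of 6 bases, which compresses differences. The overlap for Lyz1 therefore says little about its level. Cdx2 had 354, 465 and 825 counts against 630, 857, 814 and 675. Because the reads come from 3′ ends, they may not count the retroviral transcript, and the Cdx2 level may therefore check nothing about transduction.

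Of the 11303 genes tested, 345 (3.05%) were called different, 152 (1.34%) higher and 193 (1.71%) lower in the dediHep-BOs. A call needed an adjusted p under 0.1 in edgeR's quasi-likelihood test with Benjamini-Hochberg adjustment and a log2 fold change beyond 2 in size, which is 4-fold. The other 96.9% were not called, and 85.8% of genes tested had a log2 fold change under 1 in size, with a median of -0.00138 over all genes. At any fold, 594 genes were higher and 558 lower at that adjusted p. Of the 152 genes called higher, 146 lay above every ISC-BO in all 3 dediHep-BOs, and of the 193 called lower, 187 lay below every ISC-BO in all 3. These genes were called on the same libraries, so such separation follows largely from the choice and is no separate support. The share separated over all genes tested was not computed. The same limit holds for each called gene described below as separated between the groups. Without dediHep-BO 3, the number called higher rose to 242. Among only the 4 libraries without Ddx3y counts, 759 genes were called, of which 296 were among the 345, and with Ddx3y counted or not as a term in the fit 365 were called, of which 328 were among them. With dediHep-BO 3 alone, the library nearly free of stromal counts, 188 genes were called, of which 120 were among the 345, and the lone library was assumed to vary like the ISC-BOs. Below, values are UMI counts in dediHep-BO 1, 2 and 3 and then in ISC-BO 1, 2, 3 and 4 unless a unit is given, a fold change is log2 dediHep-BO minus ISC-BO ± SE, and "adjusted p" is from that test.

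**Figure D1:**
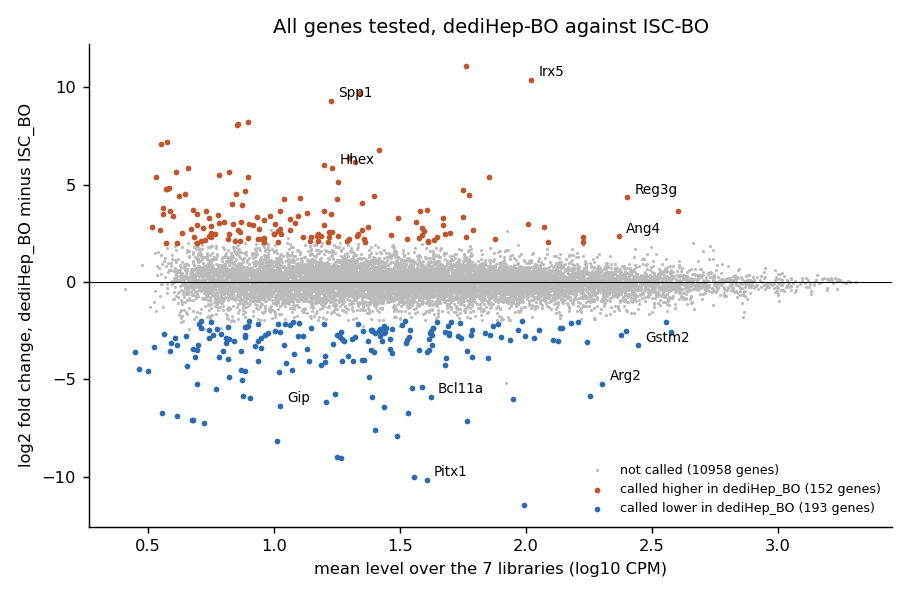
Each point is 1 of the 11303 genes tested, with its mean level over the 7 libraries (log10 CPM) on the x axis and its log2 fold change, dediHep-BO minus ISC-BO, on the y axis. Most of the genes lie close to 0, while the 152 genes called higher (orange) and the 193 called lower (blue) reach changes beyond 10 in both directions, with Irx5 among the highest and Pitx1 among the lowest.

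Several transcription factors were at or near 0 in one kind of organoid and well counted in the other, and those described here were picked for that pattern. The letters just upstream of such genes show what kind of promoter they have, since developmental regulators often start from stretches rich in CG dinucleotides. Of 12 such factors, 8 matched a RefSeq promoter, and the 250 bases before their starts held 10 to 32 CG, with a median of 17.5, against a median of 6 over all 32851 promoters of that length. All 8 lay above that median. For 2 factors that were higher in the dediHep-BOs and 2 that were lower, these 250 bases follow (RefSeq, GRCm38.p6), 5′ to 3′ on the strand of the gene, with each CG in capitals.
Dmrta2, chr4:109977775-109978024, plus strand: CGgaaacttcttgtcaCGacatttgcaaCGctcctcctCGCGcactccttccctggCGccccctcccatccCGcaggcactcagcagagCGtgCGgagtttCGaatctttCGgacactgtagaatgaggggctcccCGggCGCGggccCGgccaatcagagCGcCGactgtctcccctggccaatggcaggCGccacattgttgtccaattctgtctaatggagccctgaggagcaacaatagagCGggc
Hhex, chr19:37434591-37434840, plus strand: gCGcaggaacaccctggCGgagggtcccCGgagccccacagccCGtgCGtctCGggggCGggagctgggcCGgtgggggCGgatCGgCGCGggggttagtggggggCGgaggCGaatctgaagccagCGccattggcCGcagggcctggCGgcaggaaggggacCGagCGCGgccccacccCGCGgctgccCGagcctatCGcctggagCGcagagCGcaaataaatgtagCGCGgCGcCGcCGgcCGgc
Bcl11a, chr11:24080445-24080694, plus strand: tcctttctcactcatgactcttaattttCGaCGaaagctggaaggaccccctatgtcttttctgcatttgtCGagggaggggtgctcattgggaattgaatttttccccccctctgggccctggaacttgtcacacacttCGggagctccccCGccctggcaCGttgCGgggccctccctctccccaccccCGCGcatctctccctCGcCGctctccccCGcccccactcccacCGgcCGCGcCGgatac
Zfp503, chr14:21989602-21989851, minus strand: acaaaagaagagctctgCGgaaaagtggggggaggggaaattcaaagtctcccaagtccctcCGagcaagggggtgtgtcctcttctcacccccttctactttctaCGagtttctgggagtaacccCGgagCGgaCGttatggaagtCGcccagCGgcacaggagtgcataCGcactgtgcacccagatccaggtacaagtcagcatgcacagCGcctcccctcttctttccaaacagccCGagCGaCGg

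Higher in the dediHep-BOs were Irx5 and Irx3, Iroquois homeobox genes, Dmrta2, a DM-domain factor known from the embryonic forebrain, and Hhex, a homeobox gene that the embryonic liver bud requires. Irx5 had 448, 563 and 454 counts against 0, 0, 0 and 1 (10.36 ± 0.50, adjusted p = 2.56e-06). With a single count among the ISC-BOs, the ratio of summed counts per total was 1975, with an exact 95% counting interval of 354 to 78045. For Irx5 no dediHep-BO came near any ISC-BO.

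Irx5 (chr8:92357625-92376286) lies beside Crnde (chr8:92326033-92356120), a noncoding gene on the opposite strand, which had 16, 16 and 21 counts against 0 and was at least 23.8-fold higher. Irx3, farther along the same cluster, had 38, 53 and 15 counts against 1, 0, 1 and 1 (5.37 ± 0.68, adjusted p = 0.00119). The Irx3 ratio of summed counts per total was 47.6, with a counting interval of 15.9 to 235. The Irx3 call was lost with dediHep-BO 3 alone (4.02, adjusted p = 0.136). Dmrta2, whose promoter is printed above, had 80, 94 and 100 counts against 0, 1, 2 and 1 (6.36 ± 0.45, adjusted p = 5.66e-05). Hhex had 101, 85 and 43 counts against 1, 2, 2 and 0 (5.84 ± 0.57, adjusted p = 0.000284) and was the 1 of 15 tested liver transcription factors called, while the median of that list was -0.32. Both genes were several-fold above every ISC-BO in each dediHep-BO.

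Smaller counts belonged to Zfhx4, a zinc finger homeobox gene, with 39, 38 and 21 against 0, at least 44-fold higher, and to the forkhead gene Foxc1 with 9, 15 and 33 against 2, 0, 0 and 1 (4.42 ± 0.78, adjusted p = 0.00818). For Foxc1 the ratio of summed counts per total was 25.6, with a counting interval of 8.33 to 128. Prdm1, which encodes BLIMP1, a repressor that marks the fetal and suckling intestine before weaning, had 23, 28 and 33 counts against 5, 1, 7 and 4 (2.68 ± 0.47, adjusted p = 0.00822). The Prdm1 call was lost with dediHep-BO 3 alone (2.82, adjusted p = 0.169). No library of one group reached the other for them.

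Lower in the dediHep-BOs were Pitx1, a homeobox gene of hindlimb and pituitary development, Bcl11a, a zinc finger repressor, Zfp503, another zinc finger gene, and Lxn, an inhibitor of carboxypeptidases. Pitx1 had 0 counts in all 3 dediHep-BOs against 118, 261, 103 and 97, at least 143-fold lower (adjusted p = 0.000356), and Lxn had 0 against 107, 129, 138 and 135, at least 126-fold lower (adjusted p = 5.96e-05). Both genes were thus unseen in every dediHep-BO and at 97 counts or more in every ISC-BO. Bcl11a had 2, 2 and 3 counts against 121, 226, 150 and 95 (-5.89 ± 0.45, adjusted p = 5.96e-05). Zfp503 had 0, 0 and 1 against 81, 73, 139 and 143, a ratio of 323 with a counting interval of 57.8 to 12806. The cell cycle inhibitor Cdkn2b, which encodes p15, followed the same pattern with 0 against 49, 73, 50 and 81, at least 62.6-fold lower (adjusted p = 0.000238).

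Of the 27 tested transcription factors on the intestinal list, 3 were called lower and 1 higher, with a median of 0.17, and those called lower included regional factors of the proximal gut. Gata4, which sets jejunal against ileal identity, had 36, 41 and 82 counts against 200, 583, 160 and 236 (-2.45 ± 0.46, adjusted p = 0.0109). Pdx1, the homeobox gene of duodenum and pancreas, had 0 counts against 24, 24, 25 and 1, at least 18.3-fold lower (adjusted p = 0.032), so the groups were separated by a single count in ISC-BO 4. Osr2, an odd-skipped zinc finger gene, had 0, 8 and 0 against 25, 10, 23 and 59 (-3.40 ± 0.94, adjusted p = 0.0599). The Gata4 change dropped under 4-fold without ISC-BO 2 (-1.96), Pdx1 lost its call without dediHep-BO 2 (adjusted p = 0.10), and Osr2 lost it without dediHep-BO 1 or 3 (adjusted p of 0.208 and 0.136). None of the 3 was called with dediHep-BO 3 alone, where Gata4 was at -1.91 and the other two had 0 counts. The homeobox genes Barx2 and Mnx1 were lower too. Barx2 had 1, 2 and 3 counts against 43, 16, 10 and 25 (-3.53 ± 0.72, adjusted p = 0.0172) and lost its call with dediHep-BO 3 alone (-3.08). Mnx1 had 0, 2 and 0 against 12, 12, 16 and 22 (-4.29 ± 0.77, adjusted p = 0.00873), a ratio of 23.0 with a counting interval of 6.10 to 194. The core intestinal factors were not called: Hnf4a had 745, 633 and 773 counts against 619, 929, 812 and 758, and Cdx1 had 192, 186 and 50 against 176, 126, 231 and 347. Hox genes, which record position along the body axis, had a count in 17 of 39 cases, and none passed the filter.

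**Figure D2:**
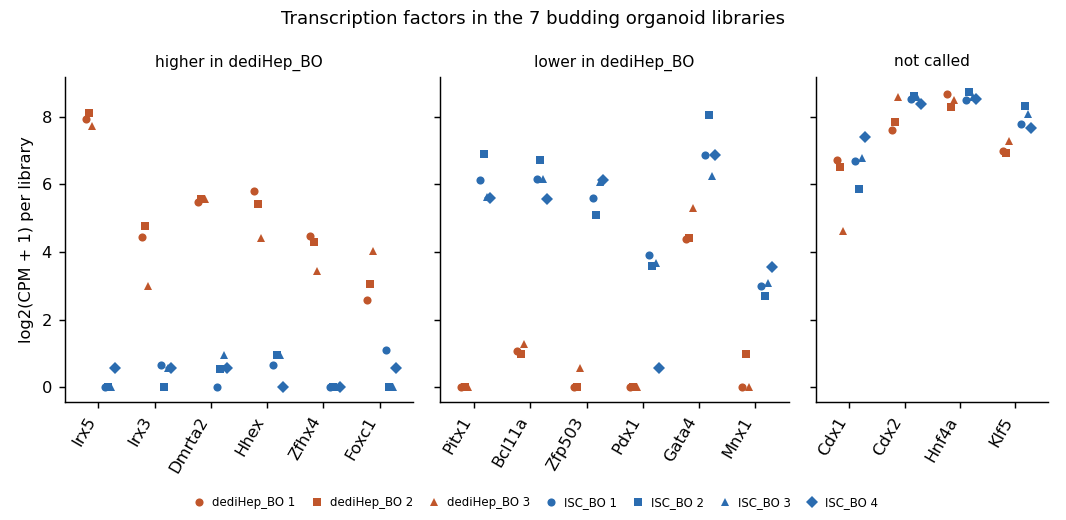
Level of transcription factors in each of the 7 libraries, as log2(CPM + 1) on the y axis, with dediHep-BO libraries in orange and ISC-BO libraries in blue and 1 marker shape per replicate number. The last panel holds factors that were not called, Cdx1, Cdx2, Hnf4a and Klf5. Genes called higher show 3 orange points far above blue points at or near 0, such as Irx5 and Dmrta2, and genes called lower show the opposite arrangement, such as Pitx1 at 0 in the 3 dediHep-BOs.

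Beside the starting cells and the spherical organoids, the same factors fell into patterns. On CPM scaled over all 49 libraries, and with no test, Irx5 averaged 0 in freshly isolated hepatocytes, 81.1 in monolayer dediHeps, 111 in dediHep spherical organoids, 221 in dediHep-BOs, 3.25 in fetal intestinal spherical organoids and 0.114 in ISC-BOs. It was therefore at 0 in fresh hepatocytes and present in the 3 dediHep conditions given here. Hhex averaged 107 CPM in fresh hepatocytes, 206 in dediHeps, 79.3 in dediHep spherical organoids and 35.3 in dediHep-BOs, against 1.65 in fetal spherical organoids and 0.569 in ISC-BOs. Pitx1, Bcl11a and Zfp503 showed the reverse, at mean levels of 0 to 3.61 CPM in the 4 liver-derived conditions and at 14.4 to 117 CPM in the 2 intestine-derived ones.

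**Figure D3:**
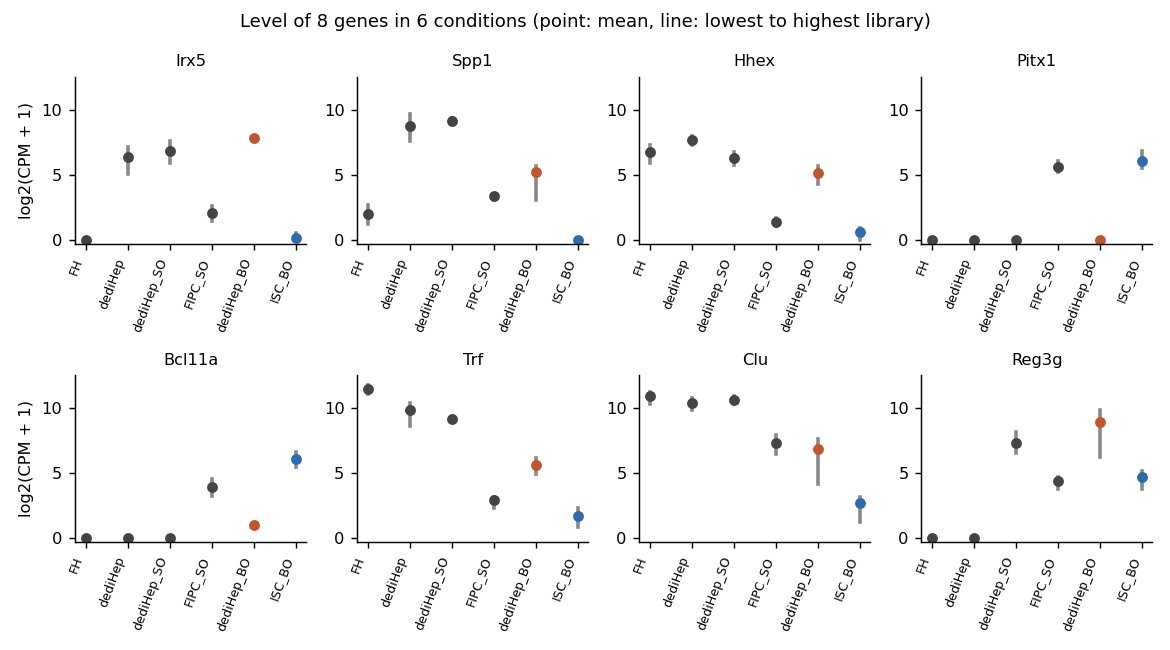
Mean level of 8 genes as log2(CPM + 1) on the y axis in 6 conditions on the x axis, with lines from the lowest to the highest library, where FH is freshly isolated hepatocytes, dediHep the monolayer, SO a spherical organoid, BO a budding organoid, FIPC fetal intestinal progenitor cell and ISC intestinal stem cell. Irx5 is at 0 and Spp1 low in FH and both are high in dediHeps and their spherical organoids, Pitx1 and Bcl11a are high only in the 2 intestine-derived conditions among these 6, and Trf and Clu are highest in the liver-derived conditions before budding.

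Paneth cell products moved in 2 directions, with most alpha-defensins lower and several other granule proteins higher in the dediHep-BOs. Lysozyme was not called, but its counts lie near the ceiling of 4096 UMI sequences, so a difference could have been hidden. Of 23 tested Defa genes, which encode alpha-defensins, 17 were called lower and 0 higher, all 23 had a negative fold change, and the median was -2.51 against -0.00138 over all genes. Summed over the family, the level was 922, 889 and 255 CPM in the dediHep-BOs and 3645, 2656, 2734 and 3146 CPM in the ISC-BOs. The highest dediHep-BO was thus below the lowest ISC-BO. From dediHep-BO 3 alone, 17 Defa genes were called lower.

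Defa29 had 9, 7 and 9 counts against 169, 121, 152 and 202 (-4.25 ± 0.36, adjusted p = 0.000107). Defa22 had 16, 7 and 13 against 102, 134, 99 and 100 (-3.14 ± 0.35, adjusted p = 0.000553), and Defa37 had 35, 48 and 20 against 249, 203, 164 and 240 (-2.63 ± 0.37, adjusted p = 0.00238). No library of one group reached the other for these 3 genes. Defa21 (-2.96 ± 0.44) and Defa34 (-2.73 ± 0.42) moved alike. The family sits with other defensin-like genes at chr8:19210462-21750000 (GRCm38), where 34 genes were tested, 23 were called lower and 0 higher. AY761184, a defensin-like gene there, had 8, 5 and 1 counts against 292, 220, 271 and 444 (-5.98 ± 0.54, adjusted p = 0.00016). In the 23 genes called in this stretch, a median of 86.7% of the 30-base windows in the last 300 bases of the transcript occurred in another gene as well, so the counts of single members are uncertain.

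Most matched promoters of the Defa genes called lower held 2 kinds of letters, of the types that the TCF/LEF factors of Wnt signalling and CDX factors bind. CTTTGAT, a TCF/LEF-type match read on either strand, was in 3.21% of all 32851 promoters and in 10 of the 10 promoters matched by symbol among the Defa genes called lower. CNATAAA, a CDX-type match that overlaps TATA-box letters when it reads CTATAAA, was in 9.81% of all promoters and in 9 of those 10. Among the 6 Defa promoters outside these 10, 3 held CTTTGAT and 4 CNATAAA, and of the 4 Paneth-list genes called higher none held either in this window. Of the 6 Defa promoters, Defa23 and Defa31 were tested and not called, and both held both kinds of letters. Defa38, Defa41, Defa42 and Defa43 were not matched to a tested gene by symbol. By position and strand they start at or in Gm14851, Gm15293, Gm7849 and Gm7861, which were called lower. Defa41 held both kinds of letters, Defa38 only CNATAAA, and Defa42 and Defa43 neither. The letters thus did not set Defa genes called lower apart from those not called. Over the 11 matched promoters of the Paneth list, 1 held CTTTGAT and 3 CNATAAA. The 250 bases before the start of 2 Defa genes called lower and 2 Paneth-list genes called higher follow (RefSeq, GRCm38.p6), with CNATAAA and CTTTGAT on either strand in capitals.
Defa22, chr8:21162027-21162276, plus strand: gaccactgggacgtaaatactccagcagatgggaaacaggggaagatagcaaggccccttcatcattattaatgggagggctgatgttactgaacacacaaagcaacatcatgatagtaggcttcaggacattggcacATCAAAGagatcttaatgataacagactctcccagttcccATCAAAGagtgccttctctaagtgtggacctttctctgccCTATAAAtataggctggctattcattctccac
Defa37, chr8:21565136-21565385, plus strand: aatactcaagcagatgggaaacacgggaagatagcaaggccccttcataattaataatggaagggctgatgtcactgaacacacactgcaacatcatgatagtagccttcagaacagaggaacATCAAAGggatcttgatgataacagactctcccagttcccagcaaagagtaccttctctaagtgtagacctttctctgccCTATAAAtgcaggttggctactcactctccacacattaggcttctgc
Ang4, chr14:51773591-51773840, minus strand: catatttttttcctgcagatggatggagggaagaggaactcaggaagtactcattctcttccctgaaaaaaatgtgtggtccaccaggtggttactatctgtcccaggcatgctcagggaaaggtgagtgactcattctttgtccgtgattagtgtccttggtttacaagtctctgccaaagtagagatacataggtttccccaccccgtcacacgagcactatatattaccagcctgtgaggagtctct
Mptx1, chr1:174330268-174330517, plus strand: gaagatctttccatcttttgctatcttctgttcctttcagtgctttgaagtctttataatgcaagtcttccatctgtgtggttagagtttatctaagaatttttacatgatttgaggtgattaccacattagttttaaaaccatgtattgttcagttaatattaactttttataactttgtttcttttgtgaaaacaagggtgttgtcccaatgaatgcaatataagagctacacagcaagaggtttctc

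The Defa22 and Defa37 promoters were identical at 90.2% of 235 aligned bases. A match is a description of letters and not a measured binding site.

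Of 12 tested genes on the Paneth list, 4 were called higher and 1 lower, with a median of 1.16. Ang4, an antimicrobial ribonuclease of Paneth granules, had 901, 1034 and 644 counts against 215, 131, 166 and 159 (2.35 ± 0.29, adjusted p = 0.00104). Mptx1, a pentraxin, had 400, 317 and 5 against 5, 6, 8 and 19 (4.72 ± 0.99, adjusted p = 0.0195), so its difference came from dediHep-BO 1 and 2, and with dediHep-BO 3 alone the direction turned (-0.99, adjusted p = 0.874). Habp2, a plasma serine protease, had 198, 281 and 156 against 53, 65, 36 and 15 (2.33 ± 0.43, adjusted p = 0.00971), and Pnliprp2, a lipase, had 751, 768 and 228 against 128, 149, 163 and 132 (2.07 ± 0.38, adjusted p = 0.00975). The groups did not overlap for Ang4, Habp2 and Pnliprp2. The colipase gene Clps was lower, with 16, 19 and 8 against 119, 222, 128 and 90 (-3.24 ± 0.42, adjusted p = 0.00132). Mmp7, the matrilysin that cuts pro-defensins into their active form, had 1701, 1897 and 1172 against 318, 703, 320 and 305 and fell just short of the fold threshold (2.00 ± 0.30, adjusted p = 0.00333), which it passed without dediHep-BO 3 (2.20) or without ISC-BO 2 (2.32). Pnliprp2 fell under it without dediHep-BO 1 (1.77) or 2 (1.87), and with dediHep-BO 3 alone neither it (0.58), Ang4 (1.81) nor Habp2 (1.77) was called. For Ang4, 32.5% of the 3′ windows occurred in another gene. Habp2 was also among the hepatocyte genes of the series, at 315 CPM in fresh hepatocytes, 95.9 in dediHep-BOs and 19.9 in ISC-BOs on CPM over all 49 libraries.

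Enteroendocrine genes were lower in the dediHep-BOs. Of 18 tested, 7 were called lower and 0 higher, all 18 had a negative fold change, and the median was -1.43. Summed over the list, the level was 696, 772 and 391 CPM against 1165, 1293, 1353 and 1111 CPM, with no overlap between the groups. Gip, the incretin of proximal K cells, had 0, 0 and 1 counts against 31, 64, 35 and 21, a ratio of 112 with a counting interval of 19.8 to 4454 (adjusted p = 0.000922). Gcg, which encodes proglucagon and GLP-1, had 9, 2 and 1 against 42, 30, 100 and 108 (-4.04 ± 0.70, adjusted p = 0.00767). Sst, the somatostatin gene of D cells, had 1, 2 and 5 against 63, 294, 135 and 18 (-5.46 ± 0.95, adjusted p = 0.00769).

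Cck, the cholecystokinin gene, had 47, 45 and 7 counts against 169, 319, 315 and 123 (-2.74 ± 0.57, adjusted p = 0.0186), and the ghrelin gene Ghrl had 3, 5 and 6 against 32, 178, 48 and 17 (-3.79 ± 0.79, adjusted p = 0.0193). Every ISC-BO was above every dediHep-BO for these hormones. Nts, neurotensin (-2.71 ± 0.69, adjusted p = 0.0442), and Tph1, the enzyme of serotonin synthesis (-2.42 ± 0.68, adjusted p = 0.0621), were called with fewer counts. Nts lost its call without dediHep-BO 1 or 2 (adjusted p of 0.176 and 0.128), and Tph1 without any one of dediHep-BO 1, dediHep-BO 3, ISC-BO 1 or ISC-BO 3 (adjusted p from 0.132 to 0.235). With dediHep-BO 3 alone, Sst (-4.67), Ghrl (-3.52), Nts (-2.36) and Tph1 (-4.14 on the log2 scale) lost their calls. Chga, the granule protein of the whole lineage, had 348, 465 and 97 counts against 411, 539, 530 and 555 and was not called, nor were Chgb and the lineage factors Neurog3 and Neurod1. Neurog3 had 23, 11 and 25 counts against 19, 39, 40 and 61. Scgn, which encodes the calcium-binding protein secretagogin of endocrine cells and was chosen after its values were seen, had 1, 1 and 3 counts against 23, 42, 34 and 20 (-4.04 ± 0.52, adjusted p = 0.00132; -3.33 and adjusted p = 0.113 with dediHep-BO 3 alone).

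**Figure D4:**
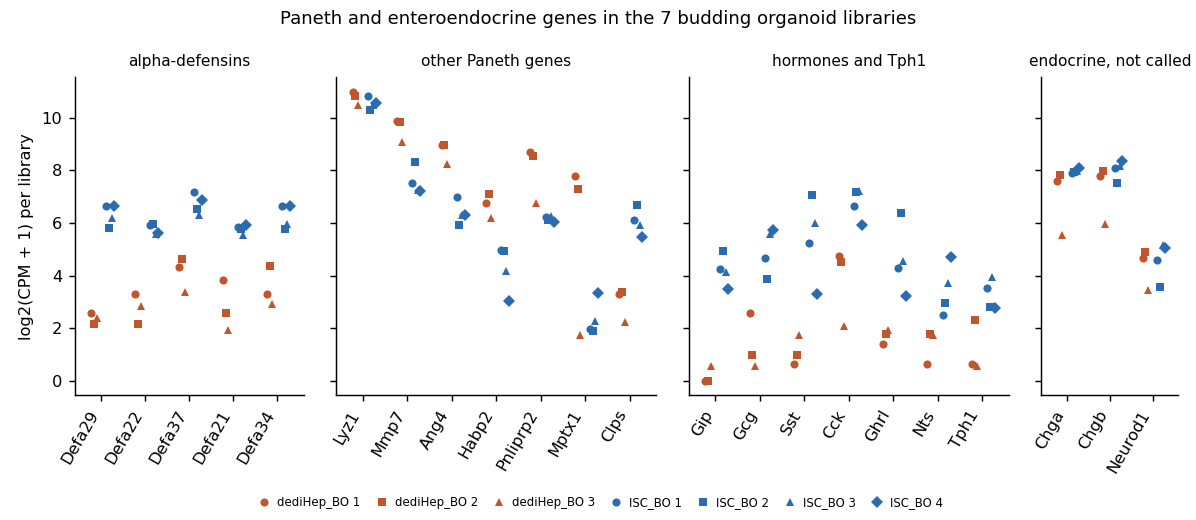
Level of secretory-lineage genes in each of the 7 libraries as log2(CPM + 1) on the y axis, dediHep-BO libraries in orange and ISC-BO libraries in blue, with 1 marker shape per replicate number. Defensins and hormones lie lower in the 3 dediHep-BOs, Ang4 lies higher, and Mptx1 is high in dediHep-BO 1 and 2 and at the ISC-BO level in dediHep-BO 3.

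Stem cell and Wnt target genes leaned upward. Of 23 tested, 3 were called higher and 0 lower, 9 were higher at any fold and 1 lower, and the median was 0.83. Nkd1, a feedback inhibitor of Wnt signalling, had 40, 39 and 55 counts against 6, 3, 1 and 4 (3.62 ± 0.46, adjusted p = 0.00126). Rnf43, a ubiquitin ligase that removes Wnt receptors, had 101, 227 and 110 against 33, 34, 49 and 24 (2.06 ± 0.35, adjusted p = 0.00664), and Tnfrsf19, a Wnt-responsive receptor, had 26, 17 and 18 against 7, 2, 2 and 5 (2.32 ± 0.52, adjusted p = 0.0273). Axin2, another feedback inhibitor, had 93, 69 and 78 against 26, 21, 32 and 36 and was under the fold threshold (1.49 ± 0.30, adjusted p = 0.0143). All 4 genes were separated between the groups. Rnf43 fell under 4-fold without dediHep-BO 2 (1.62) or ISC-BO 4 (1.91), and Tnfrsf19 lost its call without dediHep-BO 1 (adjusted p = 0.142). Only 1 of the 3 was called with dediHep-BO 3 alone. Lgr5 and Ascl2 were not called, and Olfm4, a stem cell marker of the small intestine, had 0 to 4 counts in all 7 libraries.

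Goblet genes were not called in any of 17 tested, although 7 were higher at any fold and the median was 0.74. Zg16, a lectin of goblet granules, had 661, 512 and 542 counts against 137, 258, 73 and 159 (1.90 ± 0.35, adjusted p = 0.00976) and passed the fold threshold without ISC-BO 2 (2.18). Agr2, a disulphide isomerase needed for mucin folding, had 265, 245 and 292 against 104, 129, 102 and 119 (1.25 ± 0.23, adjusted p = 0.00934). Muc2, the main gel-forming mucin, had 634, 571 and 539 against 255, 559, 184 and 207 so that ISC-BO 2 lay within the range of the dediHep-BOs and the other ISC-BOs below it. The tuft list had only 2 testable genes of 19, neither called, and Dclk1 had 14, 28 and 5 counts against 19, 26, 18 and 20. Guca2a, which encodes the gut peptide guanylin, was higher, with 316, 209 and 174 against 40, 34, 35 and 38 (2.69 ± 0.32, adjusted p = 0.000838), and Cftr, the chloride channel of crypts and bile ducts, was lower, with 23, 25 and 58 against 289, 198, 332 and 285 (-2.98 ± 0.38, adjusted p = 0.00117). Cftr missed the threshold with dediHep-BO 3 alone (-2.36, adjusted p = 0.11).

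Absorptive genes differed by list. Of 22 tested genes of enterocyte lipid handling none was called, of 24 brush border genes 3 were called lower, and of 17 nutrient transporters 3 were called lower, with medians of -0.32, -0.47 and -1.08. At any fold, 2 lipid genes were lower and 1 higher, 6 brush border genes were lower, and 7 transporters were lower. The transporters summed to 1124, 835 and 963 CPM against 1838, 2371, 1340 and 2175 CPM, with no overlap between the groups. Sis, sucrase-isomaltase, had 626, 317 and 263 counts against 237, 306, 202 and 518, and the fatty acid binding protein gene Fabp1 had 1307, 862 and 1706 against 1336, 1347, 808 and 2192, so the groups overlapped for both. None of the 7 adult Cdx2 targets that the study names was called, and the one with an adjusted p under 0.1 was Alpi, intestinal alkaline phosphatase, with 885, 1059 and 825 against 1371, 1480, 1443 and 1485 (-0.63 ± 0.17, adjusted p = 0.0602).

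Among the transporters, the fructose transporter Slc2a5 had 17, 5 and 26 counts against 123, 447, 49 and 355 (-3.87 ± 0.76, adjusted p = 0.0133), the anion exchanger Slc26a6 had 40, 38 and 65 against 241, 782, 158 and 229 (-2.85 ± 0.52, adjusted p = 0.00954), and the proline transporter Slc6a20a had 35, 24 and 12 against 129, 138, 89 and 352 (-2.85 ± 0.55, adjusted p = 0.0125). All 3 were separated between the groups. The called brush border enzymes were Ace, which trims peptides (-2.95 ± 0.60, adjusted p = 0.0172), Ggt1, which cleaves glutathione (-2.25 ± 0.48, adjusted p = 0.0206), and the trehalase gene Treh (-2.51 ± 0.58, adjusted p = 0.0293). Ggt1 lost its call without dediHep-BO 1 or 2 (adjusted p of 0.102 and 0.105) or ISC-BO 2 (-1.80), and Treh without dediHep-BO 2 (adjusted p = 0.134). None of these 6 genes was called with dediHep-BO 3 alone (log2 fold changes from -3.96 to -1.69).

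Of 15 tested genes of the proximal small intestine, 5 were called lower and 0 higher: Gip, Gata4 and Pdx1 as above, the cytochrome gene Cyp4v3, and Hsd17b6, a steroid dehydrogenase. Cyp4v3 had 253, 235 and 270 counts against 1038, 1342, 804 and 1121 (-2.08 ± 0.23, adjusted p = 0.000514), and Hsd17b6 had 19, 7 and 10 against 68, 117, 40 and 150 (-2.91 ± 0.53, adjusted p = 0.00907; -3.30 and adjusted p = 0.164 with dediHep-BO 3 alone). The other 10 proximal genes were not called, and the median of the list was -0.35. Of 8 tested distal genes, 3 were called lower, namely Gcg, Nts and Osr2, with a median of 0.24. Genes of both ends were thus among those called lower.

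Glutathione S-transferases, the enzymes that couple glutathione to reactive compounds, formed a family that was lower in the dediHep-BOs. Of 21 tested Gst genes, 6 were called lower and 0 higher, 11 were lower at any fold, 20 had a negative fold change, and the median was -1.06. Gstm2 had 66, 90 and 134 counts against 803, 1462, 693 and 728 (-3.25 ± 0.33, adjusted p = 0.000339). Gstm4 had 11, 8 and 17 against 103, 238, 110 and 107 (-3.50 ± 0.41, adjusted p = 0.000778), Gstm6 had 32, 39 and 89 against 376, 654, 313 and 312 (-2.96 ± 0.40, adjusted p = 0.00184) and Gstm3 had 30, 18 and 114 against 379, 480, 313 and 564 (-3.03 ± 0.53, adjusted p = 0.00767). The groups were separated in every library for these mu-class genes, which lie within chr3:107926334-108044894. Their neighbour Gstm5, at chr3:107895821-107898686 and chosen after its values were seen, had 48, 59 and 46 counts against 84, 190, 82 and 40 (-0.92 ± 0.43, adjusted p = 0.233) and was not called, and its groups overlapped.

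Gstm7 of the same cluster had 10, 3 and 11 counts against 46, 134, 26 and 33 (-2.84 ± 0.64, adjusted p = 0.0277), and the most abundant member, Gstm1, had 553, 315 and 929 against 2055, 2423, 1813 and 2107 (-1.81 ± 0.30, adjusted p = 0.00623), which is under the fold threshold. The counts of Gstm1 approach the 4096 possible UMI sequences of 6 bases, and a correction for repeated UMIs moved its change to -2.17. Gstt2, of the theta class on another chromosome, had 1, 4 and 6 against 51, 118, 56 and 31 (-4.06 ± 0.58, adjusted p = 0.00252). Gstm7 lost its call without dediHep-BO 2 (adjusted p = 0.123), Gstm1 passed the threshold without dediHep-BO 3 (-2.20), and with dediHep-BO 3 alone 3 Gst genes were called lower. Among mu-class genes 0 to 31.3% of the 3′ windows occurred in another gene. Over all 49 libraries Gstm2 averaged 633 CPM in fresh hepatocytes, 121 in dediHeps, 399 in dediHep spherical organoids, 311 in fetal spherical organoids, 43.2 in dediHep-BOs and 426 in ISC-BOs.

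Of 34 tested genes of drug metabolism, 3 were lower and 1 higher, with a median of -0.36. Cyp2b10, a cytochrome induced by xenobiotics, had 74, 81 and 28 counts against 232, 577, 262 and 357 (-2.48 ± 0.43, adjusted p = 0.00742), and the carboxylesterase Ces1e had 9, 9 and 7 against 25, 54, 17 and 49 (-2.07 ± 0.46, adjusted p = 0.0264). Gstm3 was the other. The Ces1e call was lost without any one of dediHep-BO 2, dediHep-BO 3, ISC-BO 2 or ISC-BO 4 (log2 fold changes from -2.11 to -1.87) and with dediHep-BO 3 alone (-2.43). Cyp1b1, a cytochrome that acts on steroids and aromatic hydrocarbons, had 14, 23 and 13 against 0, at least 22.5-fold higher (adjusted p = 0.00397). For Cyp2b10 and Cyp1b1 the groups were separated.

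Of 39 secreted and metabolic hepatocyte genes 9 passed the filter, 3 were higher at any fold and 0 lower, and the median was 1.02. The gene called was Trf, which encodes the iron carrier transferrin, with 96, 70 and 165 counts against 5, 2, 9 and 4 (4.43 ± 0.45, adjusted p = 0.000339). On CPM over all 49 libraries, Trf averaged 2860 in fresh hepatocytes, 911 in dediHeps, 570.5 in dediHep spherical organoids, 49.8 in dediHep-BOs and 2.35 in ISC-BOs. It was therefore far below its mean in fresh hepatocytes and still above each ISC-BO. Summed over the list, the level overlapped between the groups, at 5113, 3637 and 3447 CPM against 4296, 3173, 3598 and 4446 CPM. Outside the list, and chosen after their values were seen, 3 other genes of plasma proteins made by the liver were called higher. They are examples and not a share of such genes. The alpha-fetoprotein gene Afp, chosen likewise, leaned the other way with 0, 0 and 8 counts against 10, 12, 26 and 10 and was not called. Cfi, complement factor I, had 123, 74 and 27 counts against 4, 5, 4 and 3 (4.24 ± 0.56, adjusted p = 0.00148). C4bp, the complement C4 binding protein, had 303, 192 and 54 against 34, 34, 22 and 41 (2.53 ± 0.51, adjusted p = 0.0163), and Crp, C-reactive protein, had 10, 24 and 29 against 2, 4, 6 and 4 (2.36 ± 0.47, adjusted p = 0.0153). The groups were separated for Cfi, C4bp and Crp. None of these 3 was called with dediHep-BO 3 alone, where Cfi was at 2.63, C4bp at 0.61 and Crp at 2.75 on the log2 scale. C4bp also fell under 4-fold without dediHep-BO 1 (1.86). The Mup genes, which encode the major urinary proteins of hepatocytes and of which none was tested, summed to 776, 155 and 0.468 CPM against 2.32 to 3.20 CPM.

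Genes of fetal or regenerating gut epithelium were higher in 4 of 9 tested and lower in 0, with a median of 2.22. The list summed to 541, 675 and 320 CPM against 138, 122, 137 and 84.1 CPM, with no overlap and with dediHep-BO 3 the lowest dediHep-BO. For Clu and Spp1 the counts came mostly from dediHep-BO 1 and 2. Clu, which encodes clusterin and marks revival stem cells, had 279, 456 and 40 counts against 14, 18, 12 and 3 (4.48 ± 0.73, adjusted p = 0.00535). Spp1, osteopontin, also a product of biliary cells, had 96, 117 and 17 against 0, at least 103-fold higher (adjusted p = 0.00417). The groups were separated, with dediHep-BO 3 nearest the ISC-BOs. Ly6a, which encodes Sca-1, had 104, 192 and 72 against 29, 38, 36 and 3 (2.22 ± 0.56, adjusted p = 0.0441), and Msln, mesothelin, had 19, 75 and 21 against 7, 3, 17 and 0 (2.49 ± 0.77, adjusted p = 0.0889). Ly6a lost its call without dediHep-BO 1 or 2 (adjusted p of 0.123 and 0.199) or without ISC-BO 1 or 4 (adjusted p = 0.102, and a log2 fold change of 1.85), and Msln without any one of dediHep-BO 1, dediHep-BO 2, ISC-BO 1 or ISC-BO 2 (adjusted p from 0.131 to 0.389). None of the 4 was called with dediHep-BO 3 alone, where Clu was at 1.66, Spp1 at 7.03, Ly6a at 1.34 and Msln at 1.53 on the log2 scale.

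The same 2 libraries, dediHep-BO 1 and 2, held the fibroblast counts given above, whose part in these values was not tested. The fibronectin gene Fn1 had 29, 50 and 11 counts against 0, 2, 0 and 0, a ratio of 60.7 with a counting interval of 16.3 to 508.5 (adjusted p = 0.00355). In all, 13 genes, Col1a1, Col1a2, Col3a1 and Sparc among them, had at least 50 counts in both of these libraries and too few elsewhere to enter the test. Also among the 13, and chosen after their values were seen, were Mup20, a major urinary protein, with 1372, 306 and 0 against 1, 0, 4 and 3, the mucin gene Muc1 with 131, 230 and 8 against 0, 0, 0 and 1, and Nkx2-3, a homeobox gene of gut mesenchyme, with 167, 180 and 0 against 0. Whether these counts came from other cells or from the epithelium was not tested.

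Defence genes were higher in part. Of 12 tested genes of mucosal defence 3 were called higher, with a median of 0.25, and they included the C-type lectins of the Reg3 group, which bind bacterial walls. Reg3g had 1843, 1160 and 174 counts against 60, 49, 29 and 77 (4.35 ± 0.67, adjusted p = 0.0036) and lay above every ISC-BO in all 3 libraries. Reg3b had 2700, 2052 and 102 against 116, 322, 15 and 107 (3.62 ± 0.96, adjusted p = 0.0514), so dediHep-BO 3 was within the range of the ISC-BOs. Reg3b lost its call without dediHep-BO 1 or 2 (adjusted p of 0.202 and 0.145) or ISC-BO 1 (adjusted p = 0.143). With dediHep-BO 3 alone, Reg3b turned direction (-0.53, adjusted p = 0.955) and Reg3g was not called (1.57, adjusted p = 0.331). Tnfaip2, induced by tumour necrosis factor, had 31, 36 and 21 against 2, 3, 1 and 1 (4.00 ± 0.49, adjusted p = 0.00099) with no overlap. The Tnfaip2 call was lost with dediHep-BO 3 alone (3.41).

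Interferon-related genes gave a similar picture in smaller numbers, with 2 of 11 tested genes of the interferon list higher and a median of 0.20. They were Ifit1bl1, with 31, 40 and 24 counts against 6, 6, 0 and 4 (2.96 ± 0.58, adjusted p = 0.0142), and Bst2, tetherin, with 19, 22 and 39 against 7, 5, 7 and 5 (2.12 ± 0.40, adjusted p = 0.011). By gene symbol, 4 of 13 tested Ifi and Ifit genes were higher. Ifitm1, a membrane protein that restricts virus entry, had 100, 135 and 127 against 0, 2, 0 and 2 (6.76 ± 0.51, adjusted p = 5.96e-05), the GTPase Ifi47 had 135, 134 and 166 against 13, 49, 18 and 30 (2.43 ± 0.36, adjusted p = 0.00297), and Ifit1bl2 had 464, 394 and 433 against 99, 113, 52 and 153 (2.06 ± 0.33, adjusted p = 0.00498). These 5 genes were separated in every library. Bst2 fell under 4-fold without dediHep-BO 3 (1.80) and Ifit1bl2 without dediHep-BO 1 (1.93) or ISC-BO 3 (1.82), and with dediHep-BO 3 alone neither Ifit1bl1 (2.44) nor Ifit1bl2 (1.95) was called.

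Single metabolic and surface genes were among those with the smallest p. Arg2, the mitochondrial arginase, had 11, 17 and 28 counts against 504, 867, 438 and 997 (-5.22 ± 0.41, adjusted p = 6.08e-05). Cdo1, which oxidises cysteine, had 3, 3 and 2 against 65, 107, 88 and 72 (-4.87 ± 0.38, adjusted p = 5.96e-05). These 2 enzymes were nearly lost from the dediHep-BOs. Bdh1, which interconverts the ketone bodies, had 39, 41 and 27 against 184, 331, 317 and 201 (-2.81 ± 0.32, adjusted p = 0.000575). Ptgr1, a prostaglandin reductase, had 66, 88 and 46 against 551, 549, 667 and 498 (-3.07 ± 0.30, adjusted p = 0.000253). The groups were fully separated for these 4 enzymes.

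At the surface, the adhesion receptor gene Adgrd1 had 0, 3 and 1 counts against 147, 374, 125 and 187 (-7.13 ± 0.66, adjusted p = 0.000195) and Ceacam10 had 0, 1 and 3 against 98, 87, 71 and 83 (-5.88 ± 0.55, adjusted p = 0.000195). The glutamate transporter gene Slc1a3 had 0, 0 and 1 against 33, 194, 61 and 81, a ratio of 274 with a counting interval of 48.8 to 10842. Higher instead were Nrp2, a co-receptor for semaphorins and VEGF, with 335, 397 and 225 against 8, 7, 3 and 13 (5.36 ± 0.43, adjusted p = 6.08e-05), and Cadm1, a cell adhesion molecule, with 104, 146 and 274 against 9, 11, 11 and 22 (3.70 ± 0.39, adjusted p = 0.00038). The other genes that led the upward calls were Rbpms, an RNA-binding protein gene, with 57, 91 and 147 against 1, 1, 2 and 1 (6.15 ± 0.46), Myof, myoferlin (4.07 ± 0.41), the glycosyltransferase gene Mgat4c (3.28 ± 0.34) and Tm4sf4, a tetraspanin-like gene of liver and gut, with 448, 391 and 373 against 46, 32, 75 and 58 (2.96 ± 0.31). Each of these genes lay above all ISC-BOs in all 3 dediHep-BOs.

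Of 7 tested genes of BMP signalling 1 was called, Id3, an inhibitor of basic helix-loop-helix factors and BMP target, with 190, 88 and 261 counts against 23, 29, 32 and 48 (2.46 ± 0.38, adjusted p = 0.00365). No Klf gene of 10 tested was called, though 4 were higher at any fold, including Klf4, a factor of differentiating villus and goblet cells, with 196, 213 and 206 against 36, 57, 88 and 52 (1.85 ± 0.28, adjusted p = 0.00342) and Klf6 with 517, 345 and 320 against 107, 83, 157 and 150 (1.70 ± 0.31, adjusted p = 0.0095). The groups did not overlap for these 3 genes. Klf4 passed the fold threshold without ISC-BO 3 (2.08).

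Housekeeping and growth programmes held almost no called genes by the same rule. None of 25 tested G2/M genes, 21 cholesterol synthesis genes, 19 glycolysis genes, 8 Yap targets or 85 cytosolic ribosomal protein genes was called, although 3 cholesterol and 4 glycolysis genes were lower at any fold. Of 25 G1/S genes only Cdkn2b was called. Their medians ran from -0.48 for glycolysis to 0.80 for Yap targets, all 8 of which had a positive fold change. Summed CPM did not overlap between the groups for glycolysis, at 6839, 5961 and 6870 against 10824, 10986, 8301 and 7100. The Yap targets did not overlap either, at 299, 425 and 252 CPM against 196, 158, 231 and 174 CPM. The sums of the other lists in this paragraph overlapped.

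**Figure D5:**
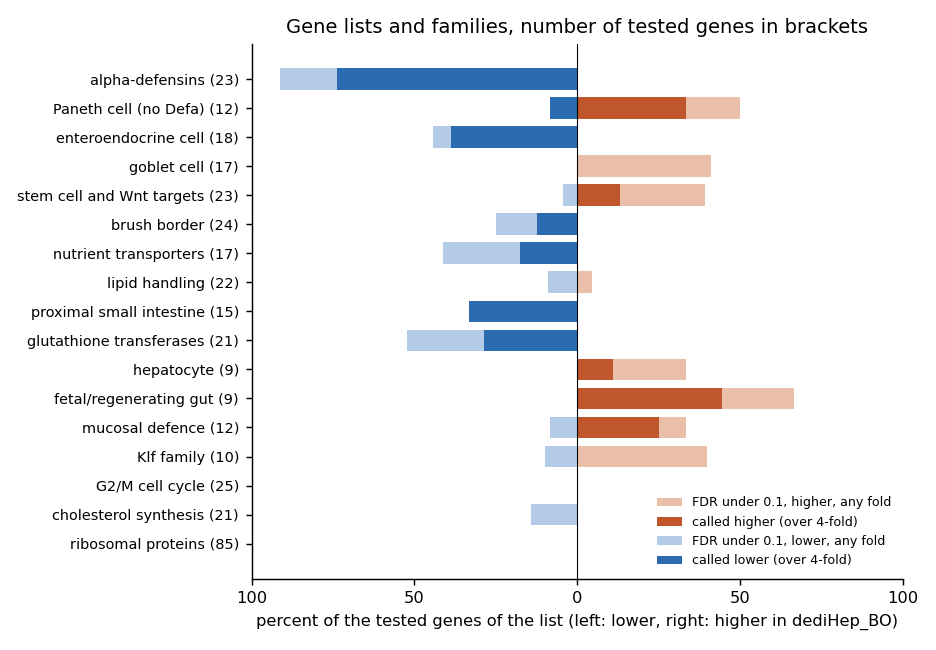
Percent of the tested genes of each list or family that were lower (left of 0) or higher (right of 0) in dediHep-BOs, light bars for an adjusted p under 0.1 at any fold and dark bars for those also beyond 4-fold, with the number of tested genes in brackets. Defa has the longest dark bar to the left, at 73.9% of 23 genes, the enteroendocrine list follows at 38.9% of 18, and the fetal and regenerating list reaches 44.4% of 9 to the right.

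Some called genes lay near each other. Within 500000 bases of another gene called in the same direction lay 97 of the 345, in 29 stretches, of which the defensin stretch was one and the Gstm cluster another. The share for genes not called was not computed, so whether 97 exceeds what gene density alone gives was not tested. On chromosome 13, Prl2c2 had 71, 23 and 11 counts against 0 and Prl2c3 had 50, 31 and 17 against 0, at least 47.2-fold and 44-fold higher; these prolactin-family placental hormone genes share 79.4 to 95.6% of their 3′ windows with other genes and cannot be told apart by these reads. Prl2c3 was not called with dediHep-BO 3 alone (adjusted p = 0.122). A group of 10 predicted genes near the start of chromosome 9 was higher as well, with a median of 69.0% of windows shared. Across the text, Crnde, Zfhx4, Pitx1, Mnx1, Tph1, Zg16, Gstm7, Gstm1, Klf4, Klf6, Scgn, Cfi, C4bp, Crp, Afp, Gstm5 and the Prl2c genes were named after their values were seen.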

How the data were processed

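RNA of mouse cells and organoids was converted to CEL-Seq2 libraries, which count 3′ ends with UMIs of 6 bases. The deposited values are raw UMI counts per gene, 1 table for 49 libraries, made by the authors with bcl2fastq 2.20, Bowtie2 2.3.1, HTSeq 0.6.0 and GRCm38, as their processing notes list. Of 46078 gene identifiers, 45143 matched a symbol in the GENCODE annotation of that build. The 3 dediHep-BO and 4 ISC-BO libraries, 1757504 to 2337097 counts each, were compared alone with edgeR 4.0.16 (R 4.3.3): filterByExpr (minimum count 10, total 15), TMM factors and the quasi-likelihood F-test, with Benjamini-Hochberg adjustment over the 11303 genes tested. SE is the fold change divided by the square root of F. Called genes had an adjusted p under 0.1 and a log2 fold change over 2 in size. A group at 0 was set to 3 counts over the group, and ratios resting on 1 to 3 counts carry exact 95% intervals for counting error only. UMI counts cannot exceed 4096, which compresses the highest genes. The fit was tested on simulated data.

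Named genes were the 12 smallest p in each direction with a symbol that is not a predicted gene, up to 5 called genes of each of 44 lists and 58 families by symbol, the defining markers, the adult Cdx2 targets and the Hox genes. Members and lists were chosen with earlier results of these data known. Lists are described by counts and medians, with no set test. CPM for other conditions use TMM factors over all 49 libraries. DESeq2 1.42.0, other filters, scalings and thresholds, a UMI correction, thinned counts, a replicate block and leaving out each library were alternatives. Fits with Ddx3y as a term, with only the libraries lacking it, and with dediHep-BO 3 alone were chosen after seeing the data. Promoters are from RefSeq (GRCm38.p6), and the promoters of 4 of the 12 factors were not used here. Some genes that met the rule are not reported here.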

Additional observations from a re-analysis of the deposited data

Results flagged for a closer look

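In the 4 ISC-BOs, 1 library stood apart from the others in 6 of 111 values tested by Dixon's ratio at its 95% critical value. Chance alone flags about 1 in 20 for normally spread values, which low counts are not. The highest library stood apart for the homeobox gene Irx5 at 0.486 CPM with the others at 0, for the adhesion gene Cadm1 at 10.7 CPM, for the pentraxin gene Mptx1 at 9.23 CPM, for Gstm4 at 109 CPM and for fibronectin, Fn1, at 0.914 CPM with the others at 0. With all others at 0 the ratio is 1 whatever the count. The flags for Irx5 and Fn1, from 1 and 2 counts, therefore carry no information. The lowest library stood apart for Ly6a at 1.46 CPM. For Irx5, Cadm1, Gstm4 and Fn1 the stray library lay on the same side of every dediHep-BO as the other ISC-BOs. For Mptx1 it was above dediHep-BO 3, and for Ly6a it was below all other libraries.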

How the results depend on the processing

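No result rests on more than 3 libraries against 4, and low genes are limited by depth, since 3 counts are 1.28 to 1.71 CPM. The direction of every called gene held under every setting that tested it but the one with dediHep-BO 3 alone. Of the 101 genes given with a fold change, 52 kept their side of the threshold in every setting that tested them. Called genes were 345 (152 higher, 193 lower, 55 in lists, 74 in families). They were 346 with DESeq2's size factors in edgeR, 349 with library totals only or DESeq2, 353 after UMI correction, 338 after thinning and 365 with Ddx3y as a term, of which 328 were shared. At any fold the call gave 1152 genes (594 higher, 558 lower), and at an adjusted p under 0.05 and over 2-fold 588, with 310 higher. With no filter on low counts there were 798 (455 higher, 343 lower, 104 in lists, 154 in families), and with at least 0.5 CPM in 3 libraries 605 (323 higher, 83 in lists, 119 in families), both over more genes tested. All 49 libraries in one fit gave 287 higher and 116 in families. The 4 libraries with no Ddx3y count gave 759 (390 higher, 369 lower, 92 in lists, 133 in families), of which 296 were shared, and the cause was not tested.

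With dediHep-BO 3 alone there were 188 (80 higher, 108 lower, 23 in lists, 47 in families), with 3 Gst genes lower and 1 Wnt target higher. That fit has 1 library in a group, and 3 of the 345 genes changed sign in it, including Mptx1 (-0.99) and Reg3b (-0.53). Leaving out 1 library at a time gave 292 to 479 called, 134 to 242 higher, 157 to 237 lower, 43 to 79 in lists, 65 to 104 in families, 15 to 18 Defa, 5 to 7 enteroendocrine and 5 to 7 Gst genes lower, and 2 to 3 Wnt targets higher.

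The replicate numbers did not pair the libraries: deviations from the group means correlated at 0.145, -0.04 and 0.02 for numbers 1, 2 and 3. A replicate block gave 424 called genes, of which 322 were shared.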
